A study of Mus musculus with 16 samples.

Results

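Cholesterol and fatty acid synthesis genes were followed in T cells of mouse visceral adipose tissue (VAT). The group was defined by name as 36 genes of the mevalonate and sterol pathway, its SREBP sensing machinery, fatty acid synthesis, elongation and desaturation, and sterol export and storage. Of these, 35 had a row among the 19540 genes of the deposited table, and Tm7sf2 was not analysed here. After a filter on low values (a normalised value of 10 or more in at least 3 libraries), 34 members stood among 14319 genes tested, and Fads2 did not reach the filter. RNA came from Treg (regulatory T cells, the suppressive CD4 T cells marked by Foxp3) and Tconv (conventional T cells), both sorted from digested fat of C57BL/6JRcc mice at 12 weeks of age. The deleted mice, called KO, carry floxed Hpgd and a YFP-Cre driven by Foxp3, so the deletion is directed to Foxp3-expressing cells and Tconv of these animals are cells that live beside deleted Treg. Hpgd encodes the dehydrogenase that inactivates prostaglandin E2. The control mice are called WT in the titles, while the line label names the floxed allele and the Cre for all 16 libraries, so genotype rests on the titles and the sources used here do not say which of these alleles the controls carry. The WT mice gave 3 Treg and 4 Tconv libraries, and the KO mice gave 4 Treg and 5 Tconv libraries. The study design gives 5 deleted and 4 control animals without tying libraries to animals, so p-values measure the spread between these libraries, which may be technical.

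Animal cells build cholesterol from acetyl-CoA through mevalonate, farnesyl diphosphate, squalene and lanosterol, and build fatty acids from the same acetyl-CoA through malonyl-CoA. When sterol in the endoplasmic reticulum is low, SCAP carries the SREBP precursors to the Golgi, where they are cleaved and released as transcription factors. INSIG proteins hold SCAP back when sterol is plentiful. SREBP2, from Srebf2, mainly drives sterol genes and SREBP1, from Srebf1, mainly drives fatty acid genes. T cells switch on both branches when they are activated and divide, and the mevalonate pathway is known to support Treg function.

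Libraries held 3.39 to 9.26 M reads, except Tconv KO 3 with 56.65 M. A value is the gene's reads scaled by a size factor, with 1 added, so a gene without reads is listed at 1. The value of 3 reads, taken as the floor, ran from 1.38 in Tconv KO 3 to 7.09 in Tconv WT 2 and covers counting error only. Hpgd, the targeted gene, was listed at 73.1, 56 and 4.31 in Treg WT and at 3.41, 2.54, 2.42 and 1 in Treg KO. The library labelled Treg WT 3 therefore held 3 Hpgd reads, near the level of the deleted libraries. Members that passed, and Treg deletion differences of members with an unadjusted p under 0.05, are reported with and without it. Values of the other pathway genes, and of the difference between deletion effects, are given only with it. Foxp3 ran from 279.5 to 616 in Treg and from 1 to 39.3 in Tconv. Summed levels of 5 Treg markers were 22320 to 29710 in Treg and 4988 to 6766 in Tconv, and those of 5 T cell markers were 15410 to 22900 in Treg and 24020 to 27250 in Tconv. Markers of other cells stood apart in a few libraries. The sum of 9 macrophage markers reached 1079 in Tconv WT 1 and at most 281 elsewhere, and that of 6 neutrophil markers reached 15670 in Tconv WT 1 and at most 2958 elsewhere, most of it from Mmp9 except in Tconv WT 1, where S100a8 led with 10190. The sum of red cell and platelet markers was 158900 in Tconv WT 3. The sums for 10 adipocyte markers were 111 to 456 in Treg and 87.8 to 250.2 in Tconv, with Lipe the highest of them in every library. The adipocyte-defining gene Adipoq had reads only in Treg WT 2, Treg KO 1 and Tconv WT 2, at 8, 3.41 and 21.3. CD8 T and NK, B cell and stromal sums stayed at or below 716, 156 and 86.7. The sum of 10 proliferation genes was 654 to 857 in Treg WT, 908 to 1179 in Treg KO, 851 to 1394 in Tconv WT and 1381 to 1947 in Tconv KO. The part of these markers in the results below was not tested. In such bulk RNA, fewer cells of a type and less RNA per cell cannot be told apart.

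Per kilobase of exon, Elovl5, an elongase of polyunsaturated fatty acids, had the highest mean level of the members, 715 normalised reads per kb over all 16 libraries. Acly, the cytosolic source of acetyl-CoA, followed with 247, then the sterol isomerase Ebp with 201 and Srebf2 with 198. At the other end stood the desaturase Scd1 with 2.47, the cholesterol exporter Abca1 with 1.87 and the desaturase Fads2 with 0.160 normalised reads per kb. Fads2 had reads only in Treg KO 1, at 2.21, and in Tconv KO 3, at 8.22. Members also differed in how steady they were between libraries of a group. The within-group SD on the log2 scale was lowest for Srebf2 at 0.20, Acly at 0.22 and the exporter Abcg1 at 0.26. It was highest for Fads1 at 2.18, Scd1 at 2.00, Mvd at 1.79, Scd2 at 1.78 and Mvk at 1.69. The median within-group SD of the 34 members was 0.76, beside 0.77 for all genes tested.

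**Figure D1:**
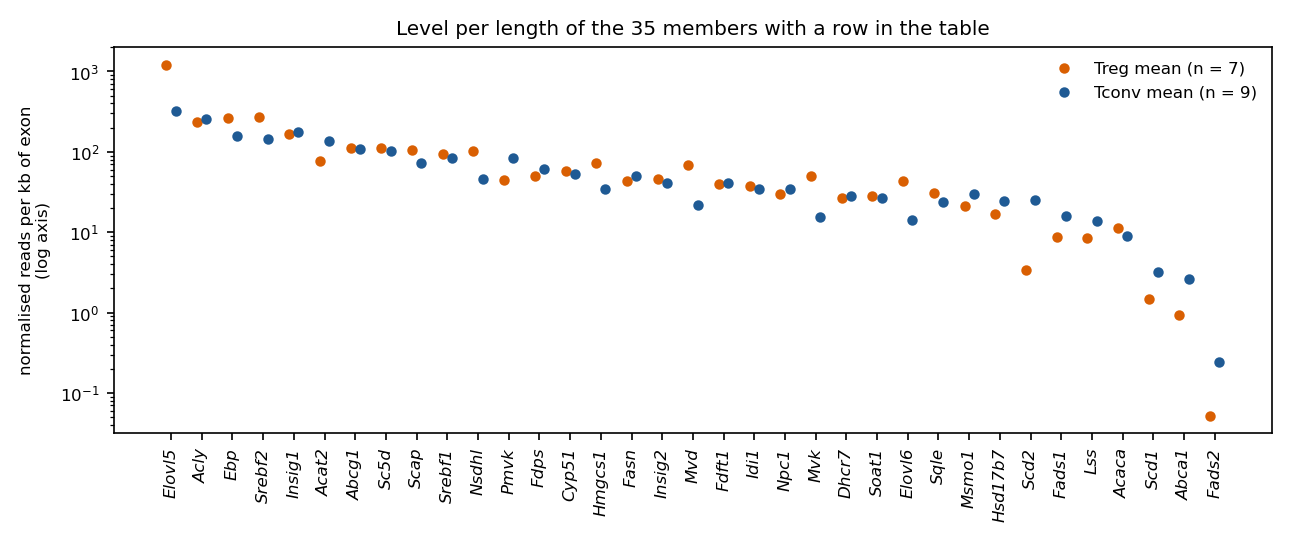
Mean level per kilobase of exon (log axis) of the 35 members with a row, for 7 Treg and 9 Tconv libraries, ordered by the mean over all 16 libraries. Elovl5 stands highest, with a mean of 1219 in Treg and 324 in Tconv, and Fads2 lowest.

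Treg and Tconv differed in 8 of the 34 members tested when the Treg minus Tconv differences in WT and in KO mice were averaged. The fatty acid elongases Elovl5 and Elovl6, the sterol regulators Srebf2 and Scap, the mevalonate-forming synthase Hmgcs1 and the sterol enzymes Nsdhl and Ebp were higher in Treg, and the desaturase Scd2 was lower. The test was limma on log2 of the deposited value plus 1, 2-sided, with Benjamini-Hochberg adjustment over all genes tested. The threshold was an adjusted p of 0.05. All fold changes and adjusted p-values below are on that scale and from that test. Across all genes, 11.8% passed in this comparison, 6.61% as higher and 5.15% as lower in Treg, beside 7 higher and 1 lower among the 34 members. The members had no common direction. Their median difference was -0.01 on the log2 scale, with 17 positive and 17 negative, beside a median of 0.01 for all genes. By role, 1 of 7 members passed among the mevalonate steps, 2 of 10 among the squalene and sterol steps, 2 of 5 in sterol sensing, 3 of 8 in fatty acid synthesis, elongation and desaturation, and 0 of 4 in export, storage and lysosomal exit. None of the last group had an unadjusted p under 0.05, beside 23.9% of all genes, and limma voom on recovered reads passed none of them either. With only 4 genes, these counts say little about the group. Without the library labelled Treg WT 3, Srebf2, Elovl5, Elovl6 and Scd2 still passed. Without it Hmgcs1 gave 1.35 (adjusted p = 0.089), Nsdhl 0.99 (adjusted p = 0.13), Ebp 0.74 (adjusted p = 0.056) and Scap 0.56 (adjusted p = 0.071), and these 4 did not pass.

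**Figure D2:**
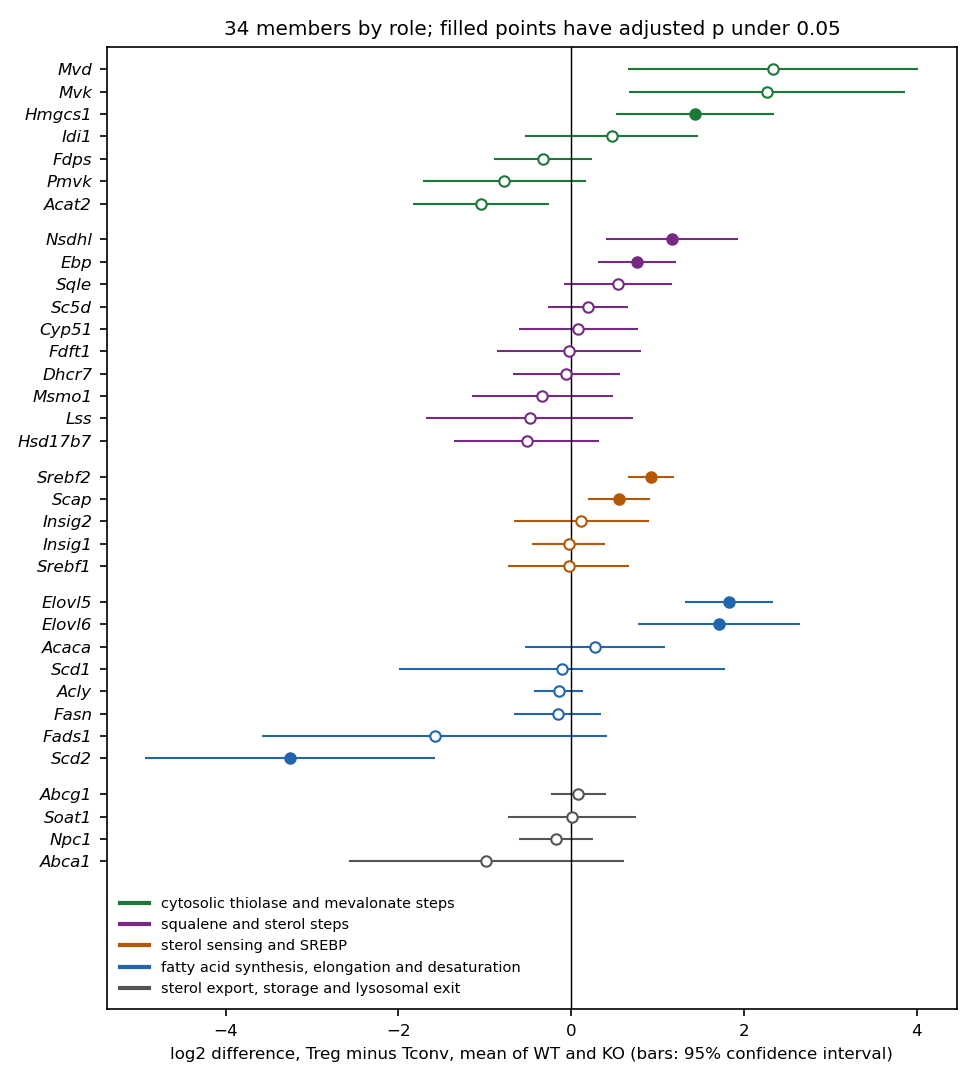
Log2 difference between Treg and Tconv, averaged over WT and KO, for the 34 members tested, grouped and coloured by role, with 95% confidence intervals as bars. Filled points passed at an adjusted p under 0.05. Srebf2 and Scap, Elovl5 and Elovl6, Hmgcs1, Nsdhl and Ebp lie to the right, at 0.55 to 1.83, and Scd2 lies to the left at -3.25. Mvd at 2.33 and Mvk at 2.27 lie furthest right as open points, and Fads1 at -1.58 did not pass either.

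Promoters are shown for the members on which this comparison turns most, Srebf2 and Elovl5, and for Hmgcs1, because it alone among the members with a promoter window held a match to the sterol regulatory element searched. Windows cover 250 bases before to 50 after the RefSeq start on GRCm38.p6, and 28 of the 36 members had one. Capitals mark matches on either strand to TCACNCCAC (a sterol regulatory element bound by SREBP), CCAAT (the box bound by NF-Y) or CACGTG (an E-box). Each is written in the direction of transcription.
Srebf2, chr15:82147019-82147318, plus strand: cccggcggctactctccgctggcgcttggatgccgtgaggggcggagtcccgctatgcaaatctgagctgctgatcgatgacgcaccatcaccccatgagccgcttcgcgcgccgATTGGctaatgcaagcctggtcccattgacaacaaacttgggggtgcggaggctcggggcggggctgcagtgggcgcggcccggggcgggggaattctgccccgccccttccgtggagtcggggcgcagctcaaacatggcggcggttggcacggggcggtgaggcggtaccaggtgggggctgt
Elovl5, chr9:77917115-77917414, plus strand: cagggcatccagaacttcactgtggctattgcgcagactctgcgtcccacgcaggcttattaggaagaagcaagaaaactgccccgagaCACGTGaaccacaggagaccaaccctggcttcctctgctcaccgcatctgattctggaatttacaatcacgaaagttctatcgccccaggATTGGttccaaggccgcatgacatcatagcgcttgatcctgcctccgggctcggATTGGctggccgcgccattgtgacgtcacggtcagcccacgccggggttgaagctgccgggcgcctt
Hmgcs1, chr13:119690101-119690400, plus strand: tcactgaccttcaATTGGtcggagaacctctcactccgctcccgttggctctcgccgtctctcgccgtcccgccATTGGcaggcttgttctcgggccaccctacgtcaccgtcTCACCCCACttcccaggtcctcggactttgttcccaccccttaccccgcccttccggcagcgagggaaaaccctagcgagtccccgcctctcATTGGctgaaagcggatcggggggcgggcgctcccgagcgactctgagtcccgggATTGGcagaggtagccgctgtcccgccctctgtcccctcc

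In the Hmgcs1 window the sterol element began at base -137 from the start, between CCAAT matches that began at -237, -176, -45 and 11. The Elovl5 window held CCAAT matches at -71 and -17 and an E-box at -161, and the Srebf2 window held a CCAAT match at -135. The searched letters of the sterol element occurred in 1 of the 28 member genes with a window, beside 1.44% of all genes with one. Variants of these letters were not searched, so a window without a match may still hold such an element. CCAAT occurred in 22 of 28 member genes beside 41.1% of all genes, and the E-box in 7 of 28 beside 8.09%. None of the marked matches in these 3 windows overlap. These are letter matches, and no test was made on them.

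Among sterol sensing genes, Srebf2 showed the steadiest difference. It stood at 1953, 1884 and 2182 in Treg WT, at 1944, 1548, 1962 and 2092 in Treg KO, at 1431, 1093, 862 and 1032 in Tconv WT and at 1015, 961, 1014, 835 and 1002 in Tconv KO. Every Treg library lay above every Tconv library, with Tconv WT 1 the nearest from below. Srebf2 was higher in Treg by 0.92 on the log2 scale (SE 0.13, adjusted p = 4.501e-05), with group means of 1938 ± 199.6 (SD, n = 7) and 1027 ± 172 (SD, n = 9). Of all genes tested, 3.12% had the 7 Treg libraries wholly apart from the 9 Tconv libraries, and Srebf2 and Elovl5 were the 2 members of 34 that did. Scap, the escort of SREBP precursors, stood at 707, 923 and 775 in Treg WT, at 744, 917, 862 and 612 in Treg KO, at 469, 474, 741 and 512 in Tconv WT and at 609, 778, 432, 450.1 and 471 in Tconv KO. Most Treg libraries were above most Tconv libraries, but Tconv WT 3 and Tconv KO 2 reached into the Treg range. Scap was higher in Treg by 0.55 (SE 0.17, adjusted p = 0.04224), a call lost in 18 of 26 alternatives, at adjusted p up to 0.26. The retention factor Insig1, a classic SREBP target, overlapped across all groups, at 563, 410.1 and 718 in Treg WT, 507, 379, 385 and 706 in Treg KO, 495, 338, 591 and 546 in Tconv WT and 688, 482, 717, 390.3 and 636 in Tconv KO. Its difference was -0.03 (95% confidence interval -0.45 to 0.39, adjusted p = 0.95). Srebf1 did not pass (-0.03, interval -0.73 to 0.67), nor did Insig2 (0.12, interval -0.67 to 0.90).

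In the fatty acid branch, Elovl5 was the most abundant member and the one with the largest upward difference among those that passed. It stood at 3805, 1836 and 6775 in Treg WT, at 6328, 2896, 4351 and 4072 in Treg KO, at 1812, 920.4, 1686 and 977 in Tconv WT and at 1069, 878, 1384, 859 and 681 in Tconv KO. The groups did not overlap, although Treg WT 2 lay just above Tconv WT 1. Elovl5 was higher in Treg by 1.83 (SE 0.24, adjusted p = 3.164e-05), with means of 4295 ± 1760 (SD, n = 7) and 1141 ± 395 (SD, n = 9). Elovl6, which lengthens the palmitate made by fatty acid synthase, stood at 191, 427 and 249 in Treg WT, at 309.6, 448, 259 and 90.5 in Treg KO, at 26.9, 66, 196 and 125 in Tconv WT and at 31.4, 49.3, 93.9, 98.3 and 147 in Tconv KO. Treg KO 4 was low and Tconv WT 3 high, so the ranges overlapped. Elovl6 was higher in Treg by 1.71 (SE 0.45, adjusted p = 0.01517). With voom it missed the threshold at an adjusted p of 0.057.

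Scd2, a stearoyl-CoA desaturase that makes monounsaturated fatty acids, went the other way. It stood at 10.1, 1 and 1 in Treg WT, at 40.8, 24.1, 40.6 and 18.5 in Treg KO, at 173, 125, 143 and 153 in Tconv WT and at 183, 204, 1, 185 and 85.4 in Tconv KO. These rest on 10, 0 and 0 reads in Treg WT, 15 to 33 in Treg KO and 61 to 166 in Tconv WT. All Tconv libraries were above all Treg libraries except Tconv KO 3, which had no Scd2 read although it was the deepest. Scd2 was lower in Treg by 3.25 on the log2 scale (log2 difference -3.25, SE 0.80, adjusted p = 0.01001). Without Tconv KO 3 the difference was -3.88 (adjusted p = 1.224e-05). Voom on recovered reads gave -1.70 (adjusted p = 0.76) with Tconv KO 3 and -4.77 (adjusted p = 5.217e-05) without it. The desaturase Fads1 was listed at 1 in the same library, in the library labelled Treg WT 3 and in Treg KO 3. Fads1 otherwise stood at 159 and 81.2 in Treg WT, 15.5, 16.4 and 26.3 in Treg KO, 95.1, 80.2, 118 and 70.8 in Tconv WT and 59.4, 134, 20.1 and 111 in Tconv KO, and its difference did not pass (-1.58, SE 0.95, adjusted p = 0.35). Scd1 was at or near the floor in most libraries and reached 99 in Tconv KO 3. Scd1, Scd2, Scd3 and Scd4 are close copies whose reads may be split between them, so their values are uncertain.

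The genes for the enzymes that supply acetyl-CoA and build it into palmitate did not pass. Acly stood at 1118, 1322 and 1085 in Treg WT, at 1220, 1229, 1321 and 1333 in Treg KO, at 1758, 1763, 1011 and 1475 in Tconv WT and at 1336, 1075, 1164, 1253 and 1416 in Tconv KO. The ranges overlapped throughout, and the difference was -0.14 (interval -0.43 to 0.14, adjusted p = 0.58). The fatty acid synthase gene Fasn gave -0.16 (interval -0.67 to 0.35), and Acaca, the carboxylase that makes malonyl-CoA, gave 0.27 (interval -0.54 to 1.08).

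**Figure D3:**
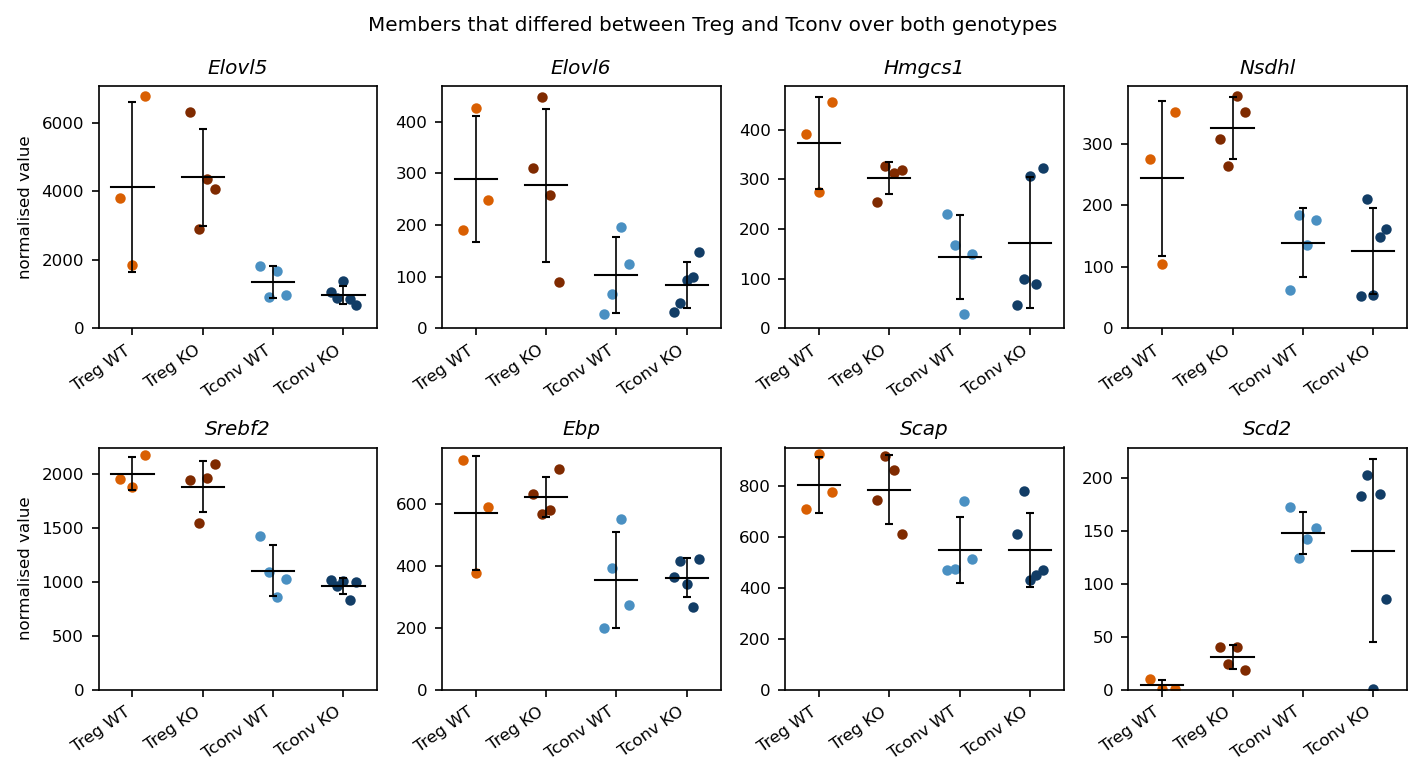
Normalised values by library (points) of the 8 members that differed between Treg and Tconv over both genotypes, with group means and SD as lines, with 3 to 5 libraries a group. Srebf2 and Elovl5 show no overlap between the cell types. Scd2 is low in Treg and is listed at 1 in 1 Tconv KO library.

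Of the mevalonate steps, Hmgcs1, which condenses acetyl-CoA and acetoacetyl-CoA, passed. It stood at 392, 274 and 456 in Treg WT, at 255, 327, 312 and 319 in Treg KO, at 230.5, 167, 28.2 and 151 in Tconv WT and at 46, 99.96, 306, 88.8 and 324 in Tconv KO. Tconv KO 3 and Tconv KO 5 lay within the Treg range and the other Tconv libraries below it. Hmgcs1 was higher in Treg by 1.43 (SE 0.44, adjusted p = 0.03862), a call lost in 12 of 26 alternatives, at adjusted p up to 0.12. The decarboxylase gene Mvd and the kinase gene Mvk had larger but less steady differences, 2.33 (SE 0.80, adjusted p = 0.067) and 2.27 (SE 0.76, adjusted p = 0.060), and did not pass. Mvk stood at 48.5, 158 and 235 in Treg WT, at 156, 136, 33.6 and 166 in Treg KO, at 117, 21.3, 107 and 2.13 in Tconv WT and at 37.5, 68.8, 4.67, 19.4 and 5.44 in Tconv KO. Its values overlapped at Treg WT 1 and Treg KO 3, and voom passed it at 2.62 (adjusted p = 0.038). Acat2, the cytosolic thiolase that starts the route, had the highest level per kb of this group with 111. It stood at 414, 45.5 and 85.9 in Treg WT, at 179, 228, 245 and 179 in Treg KO, at 350.5, 267, 538 and 186 in Tconv WT and at 337, 182, 313, 335 and 646 in Tconv KO. Treg WT 1 and the lower Tconv libraries overlapped, and the difference of -1.04 did not pass (SE 0.38, adjusted p = 0.082). The kinase gene Pmvk stood at 85.9, 74.3 and 36.3 in Treg WT, at 91.4, 77.8, 42.1 and 131 in Treg KO, at 282, 228, 83.5 and 26.9 in Tconv WT and at 185, 165, 78.8, 114 and 139.6 in Tconv KO. Its ranges overlapped and its difference did not pass (-0.77, SE 0.45, adjusted p = 0.33).

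Past squalene, Nsdhl and Ebp passed. Nsdhl takes part in the demethylation of the sterol ring, and Ebp shifts a double bond within it. Nsdhl stood at 275, 105 and 352 in Treg WT, at 307, 264, 378 and 352 in Treg KO, at 62, 184, 135 and 177 in Tconv WT and at 52.1, 209.8, 54.1, 148 and 162 in Tconv KO. Only Treg WT 2 fell into the Tconv range. Nsdhl was higher in Treg by 1.16 (SE 0.37, adjusted p = 0.04327), a call lost in 13 of 26 alternatives, at adjusted p up to 0.20. Ebp stood at 745, 378 and 592 in Treg WT, at 633, 569.5, 580.1 and 713 in Treg KO, at 201, 395, 552 and 273 in Tconv WT and at 365, 416, 344, 269 and 422 in Tconv KO. Treg WT 2 was within the Tconv range and the other Treg libraries above it. Ebp was higher in Treg by 0.76 (SE 0.22, adjusted p = 0.02448), a call lost in 6 of 26 alternatives, at adjusted p up to 0.079. The desaturase gene Sc5d stood at 638, 487 and 449 in Treg WT, at 587, 629, 423 and 579 in Treg KO, at 406, 263, 843 and 451 in Tconv WT and at 438, 458, 769, 421 and 402 in Tconv KO. Its difference of 0.20 did not pass (interval -0.27 to 0.66), with Tconv WT 3 and Tconv KO 3 the highest libraries of all. The other 7 sterol-step members had differences between -0.52 for Hsd17b7 and 0.54 for Sqle, and none passed.

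Export and storage genes showed no difference that passed. Abcg1 stood at 868, 858 and 774 in Treg WT, at 766, 872, 742 and 903 in Treg KO, at 612, 916, 818 and 747 in Tconv WT and at 636, 1090, 693, 989 and 655 in Tconv KO. Treg libraries lay inside the Tconv range, and the difference was 0.08 (interval -0.24 to 0.40). Npc1, which moves cholesterol out of lysosomes, stood at 290.4, 196 and 386 in Treg WT, at 255, 384, 419 and 420.4 in Treg KO, at 352, 182, 309 and 321 in Tconv WT and at 470.4, 526, 474, 385 and 454 in Tconv KO. Its Treg minus Tconv difference was -0.18 (interval -0.61 to 0.25). The cholesterol esterifying enzyme gene Soat1 gave 0.01 (interval -0.73 to 0.76), and Abca1, near the floor in several libraries, gave -0.98 (interval -2.57 to 0.61).

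Within a single genotype fewer members passed. In WT mice, Srebf2 was higher in Treg by 0.88 (SE 0.19, adjusted p = 0.01054) and Elovl5 by 1.49 (SE 0.37, adjusted p = 0.02319), while Scd2 fell by 5.39 (SE 1.21, adjusted p = 0.01276). These are 3 of 34 members, beside 4.18% of all genes, with 2.2% higher and 1.98% lower. Without the library labelled Treg WT 3, none of the 3 passed, at adjusted p of 0.057 for Srebf2, 0.16 for Elovl5 and 0.064 for Scd2. In WT mice the Elovl5 call was lost in 6 of 27 alternatives, and the Srebf2 and Scd2 calls in 2 each. With voom, Scd2 gave -6.87 (adjusted p = 0.55) and Elovl5 1.32 (adjusted p = 0.065) in WT mice, while Srebf2 passed. In KO mice, Elovl5 was higher in Treg by 2.16 (SE 0.32, adjusted p = 0.0002171) and Srebf2 by 0.96 (SE 0.17, adjusted p = 0.001033). These are 2 of 34 members, beside 6.81% of all genes, with 4.16% higher and 2.65% lower, and no member was lower. Scd2 did not pass in KO mice, at -1.11 (SE 1.06, adjusted p = 0.66), with Tconv KO 3 included. Without Tconv KO 3 its difference in KO mice was -2.37 and passed (adjusted p = 0.029). Voom gave 3.48 (adjusted p = 0.47) with that library, the opposite sign, and -2.66 (adjusted p = 0.011) without it. These comparisons share no library, but they share the estimate of the spread. Without the libraries that stand apart (Tconv KO 3, Tconv WT 1 and Tconv WT 3), 7 members passed over both genotypes, 3 in WT and 3 in KO. The share of all genes that passed in that fit is not given here.

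No member passed between Hpgd-deleted and WT Treg, a comparison that shares its libraries with the Treg against Tconv comparisons above. In Treg KO against Treg WT, 0 of 34 members passed, 3 had an unadjusted p under 0.05, and voom passed 0 with 1 such unadjusted p, that of Acaca. Across all genes 0.021% passed and 6.22% had an unadjusted p under 0.05, or 4.32% with voom. The median difference of the members was 0.05, beside 0.08 for all genes. Scd2 led the list, with a limma difference of 3.10 (SE 1.21, adjusted p = 0.74), from 10.1, 1 and 1 in Treg WT to 18.5 at the least in Treg KO. Without the library labelled Treg WT 3 its difference was 2.69 (adjusted p = 0.78). Over all alternatives it ran from 1.56 to 4.35, the last with voom (adjusted p = 0.99). Acaca stood at 243, 318 and 267 in Treg WT and at 32.3, 218, 162 and 104 in Treg KO, all lower, with a difference of -1.38 (SE 0.58, adjusted p = 0.75). It was -1.40 (adjusted p = 0.77) without the library labelled Treg WT 3 and -1.53 (adjusted p = 0.99) with voom. Its Tconv libraries ran from 70.4 to 263. Hsd17b7, a ketoreductase of sterol synthesis, stood at 43.9, 19.3 and 73.8 in Treg WT and at 143, 188, 64.7 and 75.9 in Treg KO, with overlap at Treg KO 3, and its difference was 1.41 (SE 0.60, adjusted p = 0.76), or 1.84 (adjusted p = 0.71) without the library labelled Treg WT 3. Acaca and Scd2 were the 2 members whose Treg KO libraries lay wholly apart from Treg WT, beside 6.01% of all genes.

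Tconv of the deleted mice gave the same count. In Tconv KO against Tconv WT, 0 of 34 members passed, beside 0% of all genes. For the members, 3 had an unadjusted p under 0.05, beside 5.45% of all genes. Voom passed 0, with 5 such unadjusted p-values beside 9.48% of all genes. Of these 5, Scd2 (-6.0) and Fads1 (-5.1) had no read in Tconv KO 3. Their median difference was 0.08, beside 0.02 for all genes. Sqle, the squalene epoxidase gene, stood at 55.8, 88.3, 57.4 and 67.4 in Tconv WT and at 316, 186, 143, 157 and 132 in Tconv KO. Every KO library was above every WT library, and the difference was 1.41 (SE 0.40, adjusted p = 0.72). Hsd17b7 stood at 29.9, 39.6, 78.5 and 88.8 in Tconv WT and at 142, 117, 340.3, 143 and 149 in Tconv KO, again without overlap, with a difference of 1.60 (SE 0.53, adjusted p = 0.86). Without Tconv KO 3, the highest library, it was 1.34 (adjusted p = 0.85). Npc1 also had no overlap, as listed above, with a difference of 0.70 (SE 0.27, adjusted p = 0.86). Sqle, Hsd17b7 and Npc1 were the 3 members set wholly apart, beside 1.67% of all genes. The proliferation sum ran from 851 to 1394 in Tconv WT and from 1381 to 1947 in Tconv KO, with a small overlap. In Treg it ran from 654 to 857 in WT and from 908 to 1179 in KO, without overlap. Its part in these differences was not tested. In Treg, where Sqle ran from 104 to 335, Sqle gave 0.24 (SE 0.45, adjusted p = 0.97) and Npc1 0.37 (SE 0.31, adjusted p = 0.90) for the same deletion.

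**Figure D4:**
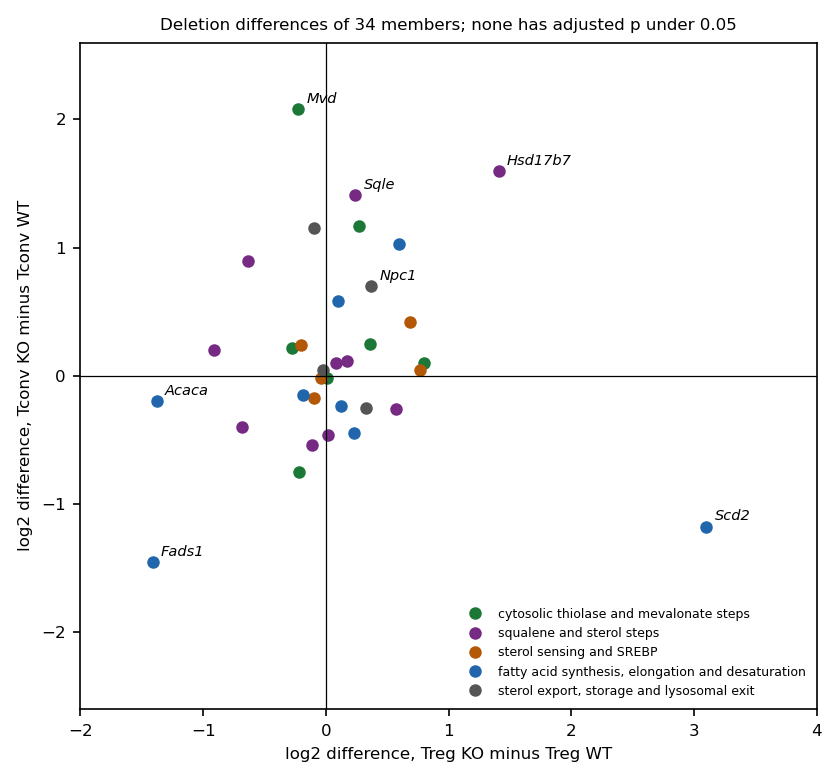
Log2 difference KO minus WT in Treg (horizontal) and in Tconv (vertical) for the 34 members tested, 1 point per gene, coloured by role. No point passed at an adjusted p under 0.05 in either cell type. Scd2 lies far right at 3.10, and Hsd17b7 lies in the upper right at 1.41 and 1.60.

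The deletion difference in Treg minus that in Tconv was tested directly, and 0 of 34 members passed, beside 0% of all genes. By limma, Scd2 alone had an unadjusted p under 0.05, beside 5.22% of all genes. Voom passed 0, and its 1 such unadjusted p was that of Acaca (-1.93, adjusted p = 0.83), beside 5.94% of all genes. For Scd2 the difference between the deletion effects was 4.28 (SE 1.60, adjusted p = 0.93), and without Tconv KO 3 it was 3.02 (adjusted p = 0.89). Voom gave 10.35 (adjusted p = 0.83) with that library and 4.22 (adjusted p = 0.77) without it. For Srebf2 and Elovl5, whose Treg minus Tconv difference passed in both genotypes, the difference between the deletion effects was 0.08 (interval -0.45 to 0.61) and 0.67 (interval -0.35 to 1.69).

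**Figure D5:**
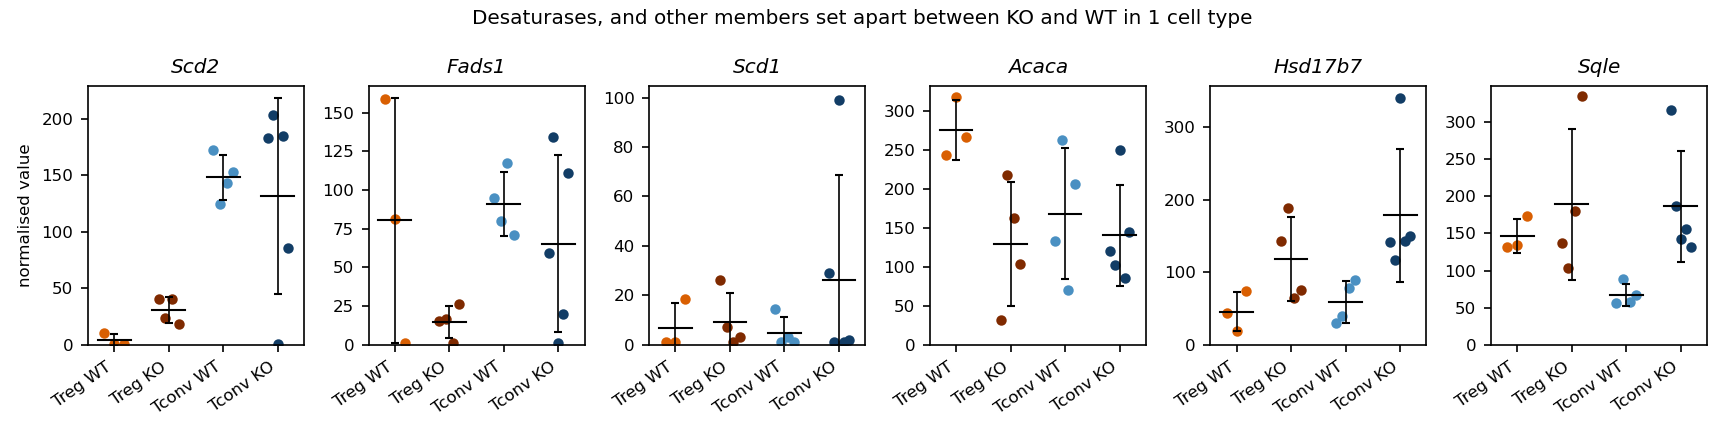
Normalised values by library (points) with group means and SD (lines) for the desaturases Scd2, Fads1 and Scd1 and for Acaca, Hsd17b7 and Sqle. Acaca and Scd2 do not overlap between Treg WT and Treg KO, and Hsd17b7 and Sqle do not overlap between Tconv WT and Tconv KO.

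Other genes of these pathways were listed apart from the members. Of 18 other sterol synthesis, uptake and sensing genes tested, 0 were higher and 2 lower in Treg over both genotypes, beside 11.8% of all genes in either direction, the background for each of these 3 lists. They were Mylip, a ligase that marks lipoprotein receptors for degradation (-0.98, SE 0.29, adjusted p = 0.03346), and Erlin1, an endoplasmic reticulum protein that binds cholesterol (-2.31, SE 0.71, adjusted p = 0.03865). Of 18 other fatty acid synthesis genes tested out of 21, 1 was higher and 0 lower. It was Hacd3, a dehydratase of the elongation cycle in which Elovl5 and Elovl6 act, at 1369, 815 and 1860 in Treg WT, 1220, 1646, 1298 and 2220 in Treg KO, 622, 277, 665 and 632 in Tconv WT and 941, 614, 636, 632 and 574 in Tconv KO. Only Treg WT 2 fell below the highest Tconv library, and the difference was 1.25 (SE 0.22, adjusted p = 0.000464). Hacd3 passed in WT mice as well, at 1.30 (adjusted p = 0.02647), and in KO mice at 1.21 (adjusted p = 0.01135). The WT call includes the library labelled Treg WT 3, the highest Treg WT library for Hacd3, and no fit without that library is given for it. Of 17 other oxysterol, export and lysosomal sterol genes tested out of 22, Osbpl9, an oxysterol-binding family gene, was higher (0.76, SE 0.19, adjusted p = 0.01168) and Gramd1b, a carrier of plasma membrane cholesterol, was lower (-0.68, SE 0.20, adjusted p = 0.03459). Gramd1b was also lower in KO mice (-0.92, adjusted p = 0.04367). With voom the counts over both genotypes were the same, while 0 of the 18 fatty acid genes passed in WT and 0 of the 17 export genes in KO. None of these genes passed in a deletion comparison or in the difference between deletion effects, by limma or by voom.

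By the GENCODE annotation of the mm10 assembly, Elovl5 spans chr9:77917364-77984519 and Scap chr9:110333288-110384950, both on the plus strand. Srebf2 spans chr15:82147181-82205379, Hmgcs1 chr13:119690379-119708260, Elovl6 chr3:129532355-129638495 and Scd2 chr19:44293674-44306864, also on the plus strand. Nsdhl spans chrX:72918557-72958514 on the plus strand and Ebp chrX:8185329-8193512 on the minus strand. Exons of Hmgcs1, Elovl6, Scap and Scd2 overlap exons of Gm48342, Gm35986, 5830462I19Rik and Mir5114, and reads in such overlaps cannot be told apart because the library protocol does not mark the strand. No exon overlap was annotated for Srebf2, Elovl5, Nsdhl or Ebp.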

How the data were processed

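RNA was sequenced after SMART-seq2 library preparation from 10 ng of RNA, per the labels' protocols. Per the submitters' processing notes, kallisto 0.44, DESeq2, R 3.3.1, Partek 6.6, CASAVA 1.8 and the build mm10 were used, in roles that are not stated. The deposited signal holds counts divided by a size factor, plus 1, as its values show: 100% of values under 1000 reads were whole within 0.1 read once the step was known. How counting was done is not stated. Groups came from sample titles.

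Values were analysed as log2 of the deposited value plus a pseudocount of 1 with limma 3.58.1 in R 4.3.3 (group means, mean-variance trend, 16 libraries, 6 comparisons), tested on simulated data before use. The 36 members, their roles, the other pathway genes and the marker lists were chosen with earlier results of these data known. Every library's value is given for members that passed and for the 2 members of each role with the highest level per kb. Exon lengths are from GENCODE M21 and promoters from RefSeq. Alternatives varied pseudocount, filter, scaling, weights, block, groups fitted and libraries. The planned edgeR test was not run, and limma voom on recovered reads, added after seeing the data, took its place.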

Additional observations from a re-analysis of the deposited data

Results flagged for a closer look

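In groups of 4 or 5 libraries, a library was singled out by its gap to the nearest other library, divided by the group's range. This ratio was taken on log2 of the value plus 1 and had to exceed the critical value of Dixon's test. The values listed below are not logged. This happened in 11 of 102 groups of member values. The critical value is set to single out about 1 of 20 groups of independent, normally distributed values. The share singled out among all genes tested is not given here. Whether the members differ from other genes in this was therefore not tested. Of the 11, 4 were in Tconv KO 3, the deepest library: Scd2 at 1 beside 85.4 to 204 in the other Tconv KO libraries, Fdft1 (squalene synthase) at 35.6 beside 154 to 220, Hsd17b7 at 340 beside 117 to 149 and Sc5d at 769 beside 402 to 458. In Treg KO 3, Mvk was at 33.6 beside 136 to 166 and Mvd at 8.08 beside 154 to 247. Idi1, the isopentenyl diphosphate isomerase gene, was at 8.24 in Tconv WT 1 beside 94.4 to 128. Msmo1, a sterol methyl oxidase gene, was at 30.3 in Tconv WT 4 beside 143 to 194. Fdps, the farnesyl diphosphate synthase gene, was at 397 in Tconv KO 5 beside 212 to 249. Soat1 was at 389 in Tconv KO 1 beside 174 to 209. Srebf2 was at 835 in Tconv KO 4 beside 961 to 1015.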

How the results depend on the processing

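Direction was kept, in every alternative run, for each member difference that passed in the reported fit. It was also kept for each deletion difference with an unadjusted p under 0.05 in that fit. Deletion differences named only for their voom p-value, such as Scd2 and Fads1 in Tconv, were not followed across the alternatives. Scd2 in KO mice, which did not pass at -1.11, turned to 3.48 (adjusted p = 0.47) with voom and passed in the 3 alternatives without Tconv KO 3. Srebf2 and Elovl5 passed in all 26 alternatives over both genotypes and in all 27 in KO mice. Over both genotypes, 8 members passed in the reported fit, 5 without a filter, 5 with voom and 4 with voom without Tconv KO 3, and leaving out each library in turn gave 4 to 9. The lowest count came without the library labelled Treg WT 3, and leaving out Treg KO 1, Treg KO 2 or Treg KO 4 gave 5 each. In WT, 3 members passed, 1 with voom, 1 with only the compared groups fitted, and 0 to 3 leaving out each library, with 0 without the library labelled Treg WT 3. In KO, 2 passed, 4 with array quality weights and 4 with only the compared groups fitted. Across all 14319 genes, voom passed 1668 over both genotypes, 289 in WT and 1076 in KO, beside 1684, 599 and 975 in the reported fit. For the other alternatives the number of all genes that passed is not given here, so a change in these counts may not be particular to the members. The deletion comparisons and their difference stayed at 0 in every alternative run. With the replicate number as a block, 7 passed over both genotypes, 3 in WT and 2 in KO, and Ebp (adjusted p = 0.052) and Scap (adjusted p = 0.10) lost their calls. Same-numbered libraries correlated at only 0.023 to 0.079 in their deviations, although 12 of 14 correlated best with their own number. The labels do not say whether a shared number means a shared animal or batch. The reported fit leaves such a pairing out, so it may ignore one. Voom shifted the median of all genes by -0.12 over both genotypes, -0.10 in WT and -0.15 in KO in the Treg against Tconv comparisons. The cause of the lost calls was not tested. Scd1, Scd2, Abca1, Fads1 and Fads2 had values at or near the floor in several libraries, and Mvd and Mvk in a few. Few reads limit the precision there, although the deepest library was among those with no Scd2 read. The planned edgeR fit was not run.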
